A study of Mus musculus with 8 samples.

Results

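Chromatin accessibility around 8 genes of the NF-kappaB system was examined in mouse bone marrow progenitors: the subunit genes Nfkb1, Nfkb2, Rel, Rela and Relb and the inhibitor genes Nfkbia, Nfkbiz and Tnfaip3. A region was assigned to one of these genes when it was the nearest RefSeq protein-coding gene within 50 kb, by the gene interval on mm10. This gave 52 of 61196 regions: 20 for Nfkb1, 1 for Nfkb2, 3 for Rel, 2 for Rela, 3 for Relb, 8 for Nfkbia, 8 for Nfkbiz and 7 for Tnfaip3. Of these, 42 passed the filter on low counts and were tested. Nearness alone says nothing about which gene a region acts on.

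In ATAC-seq the Tn5 transposase inserts adapters into open DNA, which is then sequenced. There were 8 libraries in 4 groups that the labels name GMP-MoP, proNeu2, proNeu1 and cMoP, with 2 libraries in each, made from 5000 sorted cells per tube. The title of the series describes GMP-MoP as arising from proNeu1 by an aberrant path, so GMP-MoP was compared with cMoP and with proNeu1, and proNeu1 with cMoP and proNeu2 with proNeu1 served as the frame. In the literature cMoP stands for common monocyte progenitors and proNeu1 and proNeu2 for early stages committed to neutrophils. All groups share the organism and the tissue. The sources used here give no strain, genotype, age, treatment, sort gates or number of animals. Libraries of a group are labelled as biological replicates, with nothing said of separate animals. The p-values therefore measure the spread between these samples, which could be technical.

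NF-kappaB proteins bind DNA as dimers of subunits that share a Rel homology domain. In resting cells inhibitor proteins hold the dimers in the cytoplasm, and kinases activated by receptors for tumour necrosis factor, interleukins and microbial products release them. In myeloid cells the pathway drives inflammatory and survival genes, among them genes for its own inhibitors, which close a negative feedback loop.

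Totals over the regions ran from 1388525 to 1907810 counts per library, and the median region held 11 to 18 counts, so small differences at single regions were hard to detect. The counts of the proNeu2 libraries differed by no more than sampling noise, as a chi-square statistic over its degrees of freedom of 1.01 showed, against 1.31 to 1.47 between libraries of the other groups. Values of the member regions in proNeu2 are therefore given per library, and the counts of member calls were also made with both libraries counted as 1 sample. The summed level of 6 monocyte progenitor markers was 602 and 556 CPM (region counts divided by the TMM-adjusted library size) in GMP-MoP, 425 and 422 in proNeu2, 465 and 433 in proNeu1, and 677 and 670 in cMoP. The sum over 7 neutrophil progenitor markers was 419 and 441 CPM in GMP-MoP, 919 and 927 in proNeu2, 756 and 823 in proNeu1, and 339 and 318 in cMoP. Cd79a, Cd3e and Cd3g, which mark B and T cells, had no region, while the other markers of B cells (3 of 4 genes) summed to 72.5 to 75.8 CPM in GMP-MoP, 54.4 and 59.7 in proNeu2, 61.6 and 73.7 in proNeu1, and 50.9 and 59.6 in cMoP. The 3 mast cell and basophil markers summed to 84.9 and 88.8 CPM in GMP-MoP, 48.5 and 51.3 in proNeu2, 61.8 and 54.9 in proNeu1, and 78.9 and 80.7 in cMoP. Of the 4 T and NK cell markers, the 2 with regions summed to 98.2 to 122 CPM per library. The 3 erythroid markers summed to 57.5 to 72.0 CPM. The part of other cells in the results below was not tested. In bulk samples, fewer cells with an open region and less opening per cell cannot be told apart.

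The promoters of 4 of these genes carry matches to the kappaB consensus, the 10-base sequence that NF-kappaB dimers bind, and all 4 lie inside regions that were measured here. The 250 bases before the first listed start are printed 5′ to 3′ from RefSeq (GRCm38.p6, the mm10 assembly), with kappaB matches on either strand in capitals. Nfkb2 at chr19:46304487-46304736 (plus strand) held 3 matches, of which the first 2 overlap. Rel at chr11:23770970-23771219 (minus strand) held 2 overlapping matches, Nfkbia at chr12:55492648-55492897 (minus strand) held 1, and Tnfaip3 at chr10:19015411-19015660 (minus strand) held 2.
Nfkb2: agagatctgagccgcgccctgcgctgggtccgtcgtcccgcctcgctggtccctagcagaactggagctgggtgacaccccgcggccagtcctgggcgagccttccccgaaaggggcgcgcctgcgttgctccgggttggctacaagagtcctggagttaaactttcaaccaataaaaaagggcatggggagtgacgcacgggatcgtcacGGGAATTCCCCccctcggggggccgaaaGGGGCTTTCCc
Rel: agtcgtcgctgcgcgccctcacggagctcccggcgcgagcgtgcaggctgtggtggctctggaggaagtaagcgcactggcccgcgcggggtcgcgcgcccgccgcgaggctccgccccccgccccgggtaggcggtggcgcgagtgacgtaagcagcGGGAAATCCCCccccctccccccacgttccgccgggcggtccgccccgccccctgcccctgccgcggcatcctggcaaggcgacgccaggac
Nfkbia: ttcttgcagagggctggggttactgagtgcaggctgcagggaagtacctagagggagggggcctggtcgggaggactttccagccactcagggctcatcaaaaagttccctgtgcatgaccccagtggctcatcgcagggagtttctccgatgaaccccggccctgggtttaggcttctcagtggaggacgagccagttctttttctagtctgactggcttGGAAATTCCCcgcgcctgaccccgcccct
Tnfaip3: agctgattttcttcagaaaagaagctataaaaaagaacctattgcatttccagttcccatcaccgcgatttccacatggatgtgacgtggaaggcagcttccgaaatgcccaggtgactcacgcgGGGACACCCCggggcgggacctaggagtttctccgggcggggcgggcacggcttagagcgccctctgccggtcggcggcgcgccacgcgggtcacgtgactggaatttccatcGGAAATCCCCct
The same search found a match in 7.91% of 21263 windows of this length, taken before every listed start of protein-coding genes. It found none in that of Rela at chr19:5637291-5637540 (plus strand). The share of G and C was 64.8% for Nfkb2, 77.6% for Rel, 59.2% for Nfkbia, 58.8% for Tnfaip3 and 70.4% for Rela. The median over all windows was 55.6%, and the share of matches was not adjusted for this. The Tnfaip3 window also held TGANTCA, a motif of AP-1 factors that is present in 6.13% of windows, and Rel held GAGGAAGT, a motif of the myeloid factor PU.1 present in 2.23%. A match is a stretch of letters and not a measured binding site. Nfkb1, Relb and Nfkbiz are not in the promoter table.

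Summed over all regions of a gene, the subunit genes did not move as a block. Nfkb1, which encodes the precursor of a subunit that lacks a transactivation domain, had 260 and 318 CPM in GMP-MoP, 223 and 236 in proNeu2, 230 and 239 in proNeu1, and 377 and 391.8 in cMoP (gene sums are scaled to the counts of all linked regions). Both GMP-MoP libraries lay between those of proNeu1 and cMoP. Nfkb1 was lower in GMP-MoP than in cMoP by a log2 difference of -0.40 (SE 0.0958, adjusted p = 0.0079, by the quasi-likelihood test of edgeR after Benjamini-Hochberg adjustment, as throughout). Against proNeu1 it was higher in GMP-MoP, with a log2 difference of 0.31 (SE 0.103, adjusted p = 0.0186), and in proNeu1 it was lower than in cMoP by -0.71 (SE 0.0983, adjusted p = 4.01e-08). The first of these calls was lost without GMP-MoP replicate 1 (adjusted p = 0.192) or cMoP replicate 2 (0.104) and with DESeq2 (0.230). The second was lost without GMP-MoP replicate 2 (0.433), proNeu1 replicate 1 (0.109) or proNeu1 replicate 2 (0.0698) and with DESeq2 (0.0992).

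Rela, the main transactivating subunit of the canonical pathway, had the opposite order. Its summed level was 38.3 and 48.1 CPM in GMP-MoP, 73.4 and 74.0 in proNeu2, 68.8 and 63.6 in proNeu1, and 42.9 and 34.5 in cMoP. GMP-MoP and cMoP libraries overlapped, and all lay below those of both proNeu groups. The sum joins 2 regions, described below. In GMP-MoP against proNeu1 the start region did not pass (-0.32, adjusted p = 0.386), while the region beyond the far end of the gene did (-1.12, adjusted p = 0.000205). The log2 difference of the sum was -0.60 for GMP-MoP against proNeu1 (SE 0.181, adjusted p = 0.00979) and 0.77 for proNeu1 against cMoP (SE 0.179, adjusted p = 0.000433). The GMP-MoP call was lost without GMP-MoP replicate 1 (adjusted p = 0.0913) or proNeu1 replicate 1 (0.0652) and with DESeq2 (0.112).

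Nfkb2, the precursor gene of the non-canonical pathway, had 58.2 and 41.9 CPM in GMP-MoP, 108 and 94.1 in proNeu2, 77.1 and 95.8 in proNeu1, and 53.7 and 56.7 in cMoP. The GMP-MoP and cMoP libraries again lay below every proNeu library. Nfkb2 had 1 region, so this sum holds the same counts as that region, which is described below with its own scaling and fit. The log2 difference of the sum was -0.81 for GMP-MoP against proNeu1 (SE 0.172, adjusted p = 0.000312) and 0.65 for proNeu1 against cMoP (SE 0.162, adjusted p = 0.00102). Without GMP-MoP replicate 2 and without proNeu1 replicate 2 these calls just missed the threshold of 0.05, at an adjusted p of 0.0501 and 0.05004.

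Relb, whose product pairs with the processed Nfkb2 subunit, had 139 and 126 CPM in GMP-MoP, 143 and 151 in proNeu2, 151 and 146 in proNeu1, and 107 and 125 in cMoP. Its sum was higher in proNeu1 than in cMoP by a log2 difference of 0.36 (SE 0.123, adjusted p = 0.0171), a call lost without proNeu1 replicate 1 (adjusted p = 0.0624) or cMoP replicate 1 (0.187) and with DESeq2 (0.112). Rel, the gene of the c-Rel subunit, had 103 and 110 CPM in GMP-MoP, 106 and 104 in proNeu2, 113 and 97.1 in proNeu1, and 122 and 105 in cMoP. Its sum passed the test in no comparison, although single Rel regions differed in opposite directions, as described below.

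Among the inhibitors, Nfkbia, which encodes the classical inhibitor I kappa B alpha, had 172 and 171 CPM in GMP-MoP, 228 and 238 in proNeu2, 225 and 211 in proNeu1, and 189 and 165 in cMoP. Its sum was lower in GMP-MoP than in proNeu1 by a log2 difference of -0.35 (SE 0.111, adjusted p = 0.0148) and higher in proNeu1 than in cMoP by 0.30 (SE 0.108, adjusted p = 0.0227). The GMP-MoP call was lost without GMP-MoP replicate 2 (adjusted p = 0.0807) or proNeu1 replicate 1 (0.0988), and that against cMoP without proNeu1 replicate 1 (0.110) or cMoP replicate 2 (0.255). DESeq2 made neither call (adjusted p = 0.102 and 0.116).

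Tnfaip3, whose product is a ubiquitin-editing enzyme that shuts off signalling to the I kappa B kinases, had 141 and 126 CPM in GMP-MoP, 130 and 120 in proNeu2, 112 and 99.8 in proNeu1, and 133 and 141 in cMoP. Its sum was lower in proNeu1 than in cMoP by a log2 difference of -0.37 (SE 0.127, adjusted p = 0.0161), a call lost without proNeu1 replicate 2 (adjusted p = 0.192) or cMoP replicate 2 (0.116) and with DESeq2 (0.0986). Nfkbiz, a nuclear I kappa B protein that acts on the transcription of secondary response genes, had 144 and 197 CPM in GMP-MoP, 138 and 170 in proNeu2, 161 and 145 in proNeu1, and 162 and 182 in cMoP. The GMP-MoP and proNeu2 libraries overlapped those of every other group, both cMoP libraries lay above both proNeu1 libraries, and its sum passed the test in no comparison.

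Of the 8 gene sums, 1 was thus lower and 0 higher in GMP-MoP than in cMoP (2.49% and 0.923% of 14837 gene sums, or 3.42% in either direction). Against proNeu1, 1 was higher and 3 were lower in GMP-MoP (14.8% and 13.7% of all, or 28.5% in either direction). In proNeu1 against cMoP, 4 were higher and 2 lower (19.3% and 21.7% of all, or 41.1% in either direction). For proNeu2 against proNeu1 none was called (0.0202% higher and 0.317% lower of all, or 0.337% in either direction). Comparisons that share libraries are not independent of each other.

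**Figure D1:**
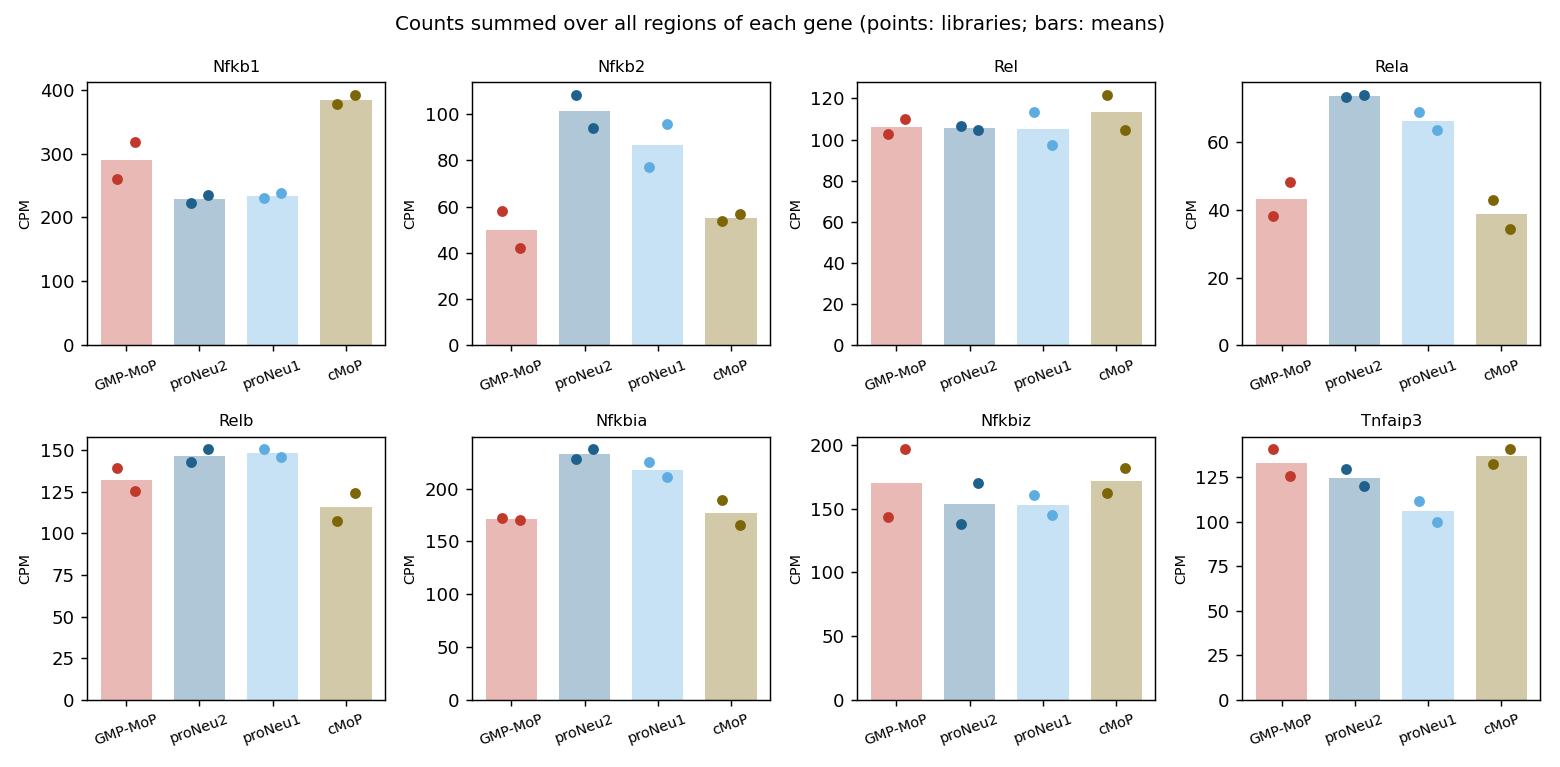
Counts summed over all regions linked to each of the 8 genes, in CPM, for GMP-MoP, proNeu2, proNeu1 and cMoP; points are libraries and bars are means of 2. For Nfkb1 the GMP-MoP libraries (260 and 318 CPM) lay between proNeu1 (230 and 239) and cMoP (377 and 391.8), while for Nfkb2, Rela and Nfkbia every proNeu library lay above every GMP-MoP and cMoP library.

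The sums join regions that behaved differently. In proNeu1 against cMoP the calls divided by position, as they did over all regions. Of the 42 tested regions, 11 were higher (20.6% of all tested regions) and 13 lower in proNeu1 (21.9% of all). The members' count in either direction was 24, beside 42.4% of all regions. At gene ends, that is within 1 kb of either end of the gene, 5 of 10 regions were higher in proNeu1 and none was lower, beside 33.1% higher and 8.41% lower of all gene-end regions. In gene bodies 3 of 14 were higher and 8 lower, beside 17.7% and 25.4% of all gene-body regions. By this rule the Nfkb2 region counted as gene body, although it covers listed starts. It was among the 3 higher ones here and among those lower in GMP-MoP against proNeu1. Outside genes 3 of 18 were higher and 5 lower, beside 15.9% and 24.1%. The median log2 difference of the members was 0.43 at gene ends, -0.83 in gene bodies and -0.32 outside, against 0.28, -0.11 and -0.10 for all regions of the same kinds. Nfkb1 held most of the 14 gene-body regions and most of the 8 lower calls among them. The gene-body values therefore describe mainly Nfkb1 and not the member genes as a set. With loess offsets 4 of the 5 gene-end calls were lost, those at Rel, Rela, Relb and Tnfaip3. With total counts in place of TMM, 3 of the 24 member calls ended, and 8 regions were higher and 14 lower. Without cMoP replicate 2 the members' count was 15. DESeq2 called 13, which left out every call named below at an adjusted p above 0.000425.

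In GMP-MoP against proNeu1, 8 of the 42 regions were higher (11.6% of all tested regions) and 8 lower in GMP-MoP (12.5% of all). The 16 calls in either direction stand beside 24.1% of all regions. The balance of directions depended on the scaling. With total counts in place of TMM, 4 of the 16 calls ended, and 9 member regions were higher and 4 lower. Over all 47506 tested regions, 6893 were then higher and 4060 lower, against 5513 and 5915 with TMM. In the TMM fit, at gene ends none of 10 was higher and 3 were lower (4.49% and 23.8% of all gene-end regions), in gene bodies 4 of 14 were higher and 2 lower (13.1% and 9.3%), and outside genes 4 of 18 were higher and 3 lower (12.5% and 8.85%). The count was 8 without GMP-MoP replicate 2, without proNeu1 replicate 1 and without proNeu1 replicate 2, and DESeq2 called 4, those of the smallest adjusted p at Nfkb1, Nfkb2, Rela and Nfkbia. With the proNeu2 libraries counted as 1 sample it was 15.

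In GMP-MoP against cMoP, none of the 42 regions was higher (1.98% of all tested regions) and 4 were lower in GMP-MoP (3.47% of all), or 5.45% of all regions in either direction. DESeq2 called none of them, at adjusted p-values from 0.666 to 0.858. Without GMP-MoP replicate 1 or cMoP replicate 2 all 4 of these calls ended, and without GMP-MoP replicate 2 or cMoP replicate 1 3 of them did. Another member region was called higher without GMP-MoP replicate 1, and 1 without cMoP replicate 1. With the proNeu2 libraries counted as 1 sample, 3 regions were lower. In proNeu2 against proNeu1, none was called by edgeR (0.00842% higher and 0.0674% lower of all regions, or 0.0758% in either direction) or by DESeq2. Without adjustment, 1 of 42 had p under 0.05, against 4448 of 47506 over all regions.

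**Figure D2:**
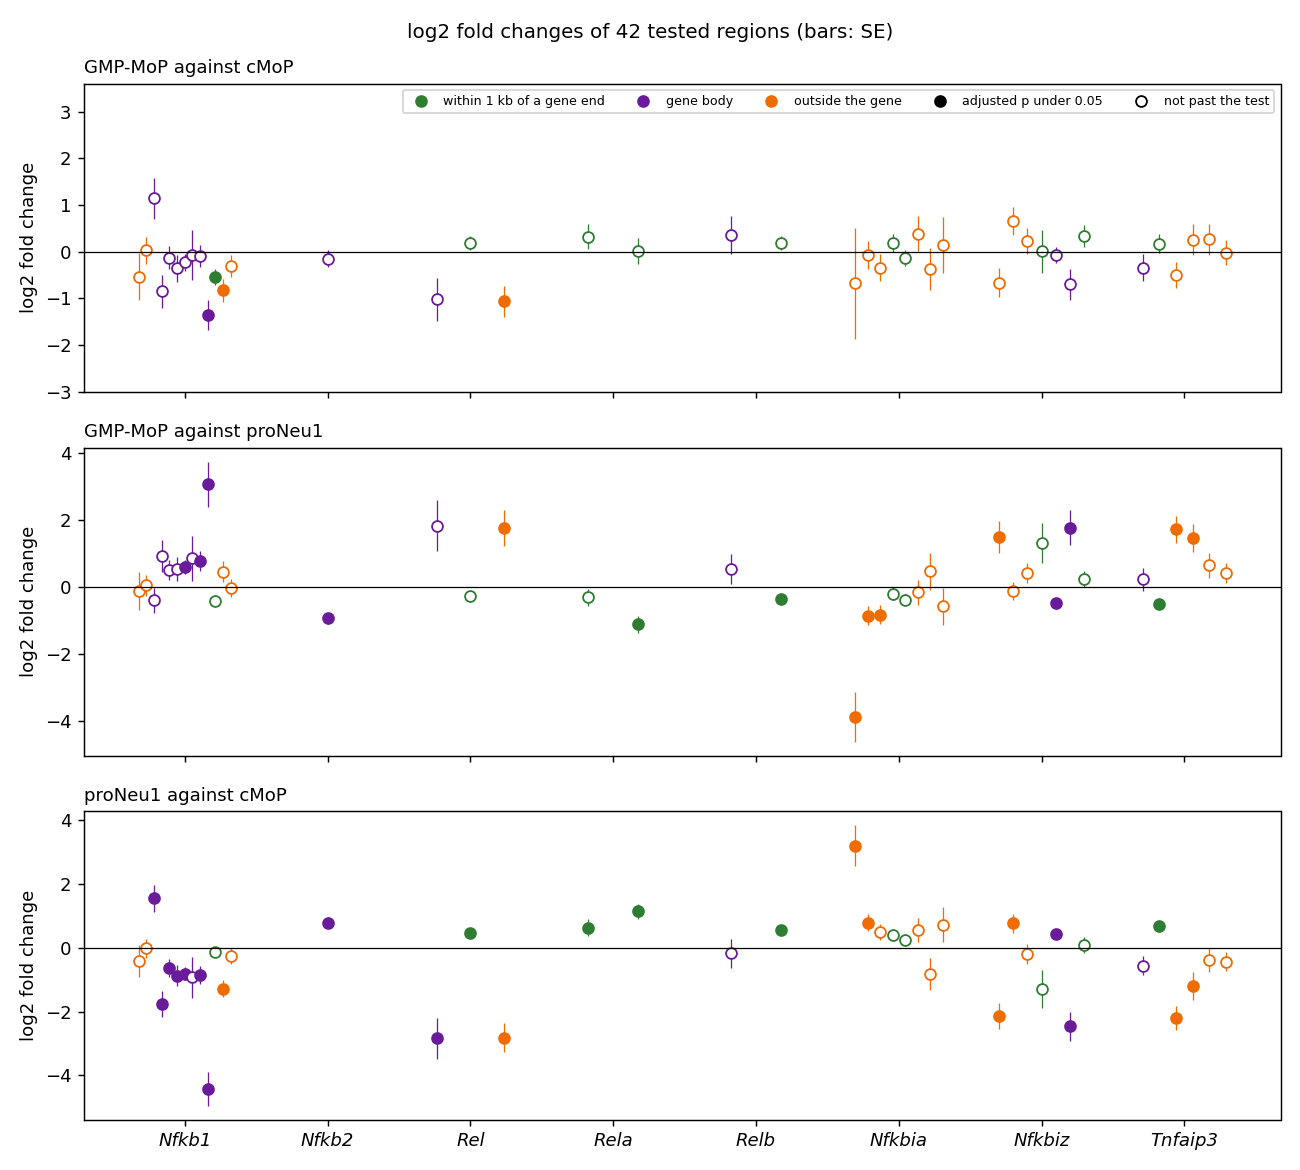
Log2 difference with its standard error for each of the 42 tested regions, by gene and position, in GMP-MoP against cMoP, GMP-MoP against proNeu1 and proNeu1 against cMoP. Values above 0 are higher in the group named first. Gene-end regions lay mostly above 0 in proNeu1 against cMoP, and the Nfkb1 gene-body region at -4.41 and the Nfkbia region at 3.20 lay farthest out.

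Start-side regions are described first; where the start is not listed, the gene-end region of highest mean level is given. Per kb of region and averaged over the 8 libraries, these levels were 95.2 CPM for Relb, 56.8 for Rel, 50.2 for Nfkbia, 39.2 for Nfkb1, 33.6 for Tnfaip3, 33.1 for Nfkb2, and 19.3 for both Rela and Nfkbiz. The Nfkb2 region at chr19:46303936-46306116, its sole region, covers the listed starts and had 55.2 and 38.0 CPM in GMP-MoP, 111 and 96.2 in proNeu2, 78.6 and 97.0 in proNeu1, and 50.5 and 51.2 in cMoP. All proNeu libraries were above all others. These are the counts of the Nfkb2 sum under another scaling and fit, so region and sum are not separate results. The calls on the sum were each lost with a library left out, as given above. The log2 difference was -0.94 in GMP-MoP against proNeu1 (SE 0.175, adjusted p = 8.46e-06) and 0.79 in proNeu1 against cMoP (SE 0.165, adjusted p = 2.45e-05), and both calls were kept in every alternative run. Psd, another gene, lies within 10 kb of this region.

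At the start of Rel, chr11:23770299-23771905 had 83.5 and 84.5 CPM in GMP-MoP, 106 and 103 in proNeu2, 112 and 93.6 in proNeu1, and 82.2 and 66.0 in cMoP. It was higher in proNeu1 than in cMoP by a log2 difference of 0.47 (SE 0.15, adjusted p = 0.00648). The Tnfaip3 start region, chr10:19014472-19015989, had 43.6 and 38.5 CPM in GMP-MoP, 70.5 and 65.7 in proNeu2, 61.6 and 54.9 in proNeu1, and 42.5 and 30.1 in cMoP. Both proNeu groups were above both other groups. The start was lower in GMP-MoP than in proNeu1 by -0.51 (SE 0.193, adjusted p = 0.0383) and higher in proNeu1 than in cMoP by 0.68 (SE 0.19, adjusted p = 0.0017). The gene-end region of Relb, chr7:19628105-19629400, which also lies within 10 kb of Clptm1, had 123 and 98.6 CPM in GMP-MoP, 139 and 148 in proNeu2, 142 in both proNeu1 libraries, and 95.1 and 98.2 in cMoP. Its log2 difference was -0.37 in GMP-MoP against proNeu1 (SE 0.137, adjusted p = 0.0346) and 0.56 in proNeu1 against cMoP (SE 0.136, adjusted p = 0.000305).

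These gene-end calls depended on the scaling. With loess offsets, which remove trends with signal level, the proNeu1 against cMoP difference was 0.09 for Rel (adjusted p = 0.626), 0.38 for Tnfaip3 (0.0902) and 0.15 for Relb (0.321), and in GMP-MoP against proNeu1 it was -0.23 for Tnfaip3 (0.404) and -0.04 for Relb (0.869). Total counts in place of TMM shifted the median log2 difference of all regions by 0.13 in GMP-MoP against proNeu1 and by -0.10 in proNeu1 against cMoP. With total counts the GMP-MoP against proNeu1 calls of Tnfaip3 (adjusted p = 0.124) and Relb (0.147) were lost. The proNeu1 against cMoP calls of Rel, Tnfaip3 and Relb were kept with total counts. The Rel call was also lost without proNeu1 replicate 1 (adjusted p = 0.111) or cMoP replicate 2 (0.128), and the Tnfaip3 call without cMoP replicate 2 (0.0843). The Tnfaip3 and Relb calls of GMP-MoP against proNeu1 were lost without GMP-MoP replicate 2 (0.259 and 0.408), proNeu1 replicate 1 (0.210 and 0.117) or proNeu1 replicate 2 (0.0668 and 0.128), and that of Relb with the proNeu2 libraries counted as 1 sample (0.0507).

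The Rela start region, chr19:5636899-5638201, had 21.1 and 23.2 CPM in GMP-MoP, 37.7 and 27.9 in proNeu2, 29.7 and 25.8 in proNeu1, and 20.4 and 15.3 in cMoP. Accessibility in proNeu1 exceeded that in cMoP by 0.63 (SE 0.258, adjusted p = 0.0369), a call lost without proNeu1 replicate 1 (adjusted p = 0.163) or cMoP replicate 2 (0.250) and with loess offsets (0.115). With total counts in place of TMM that call was also lost (adjusted p = 0.0871). A second Rela region, chr19:5648388-5650169, begins 254 bp beyond the far end of the gene and lies within 10 kb of Sipa1. It had 15.2 and 20.4 CPM in GMP-MoP, 37.7 and 47.8 in proNeu2, 40.4 and 38.7 in proNeu1, and 19.9 and 15.8 in cMoP. No library of GMP-MoP or cMoP reached the level of any proNeu library. The log2 difference was -1.12 in GMP-MoP against proNeu1 (SE 0.247, adjusted p = 0.000205) and 1.14 in proNeu1 against cMoP (SE 0.238, adjusted p = 2.25e-05), and both calls were kept in every alternative run.

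The start region of Nfkbia, chr12:55491543-55493055, had 68.3 and 60.7 CPM in GMP-MoP, 79.7 and 90.3 in proNeu2, 82.2 and 85.5 in proNeu1, and 72.6 and 68.1 in cMoP. It passed the test in no comparison, with adjusted p-values of 0.0696 in GMP-MoP against proNeu1 and 0.186 in proNeu1 against cMoP. The higher-coordinate end of Nfkbiz, chr16:55838387-55839746, also lies within 10 kb of Nxpe3. It had 23.2 and 35.1 CPM in GMP-MoP, 25.5 and 28.5 in proNeu2, 26.9 and 23.7 in proNeu1, and 22.6 and 24.8 in cMoP. Both proNeu2 libraries lay above both cMoP libraries, every other pair of groups overlapped, and no comparison passed.

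The higher-coordinate end of Nfkb1, chr3:135690477-135692039, had 48.6 and 47.1 CPM in GMP-MoP, 57.2 and 70.4 in proNeu2, 58.8 and 68.5 in proNeu1, and 74.2 and 64.9 in cMoP. It was the one gene-end region called in GMP-MoP against cMoP, lower by -0.54 (SE 0.173, adjusted p = 0.0394). Leaving out any single library ended that call, at adjusted p-values from 0.0599 without proNeu1 replicate 1 to 0.3003 without cMoP replicate 1, and 12 of 16 alternatives did so in all.

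**Figure D3:**
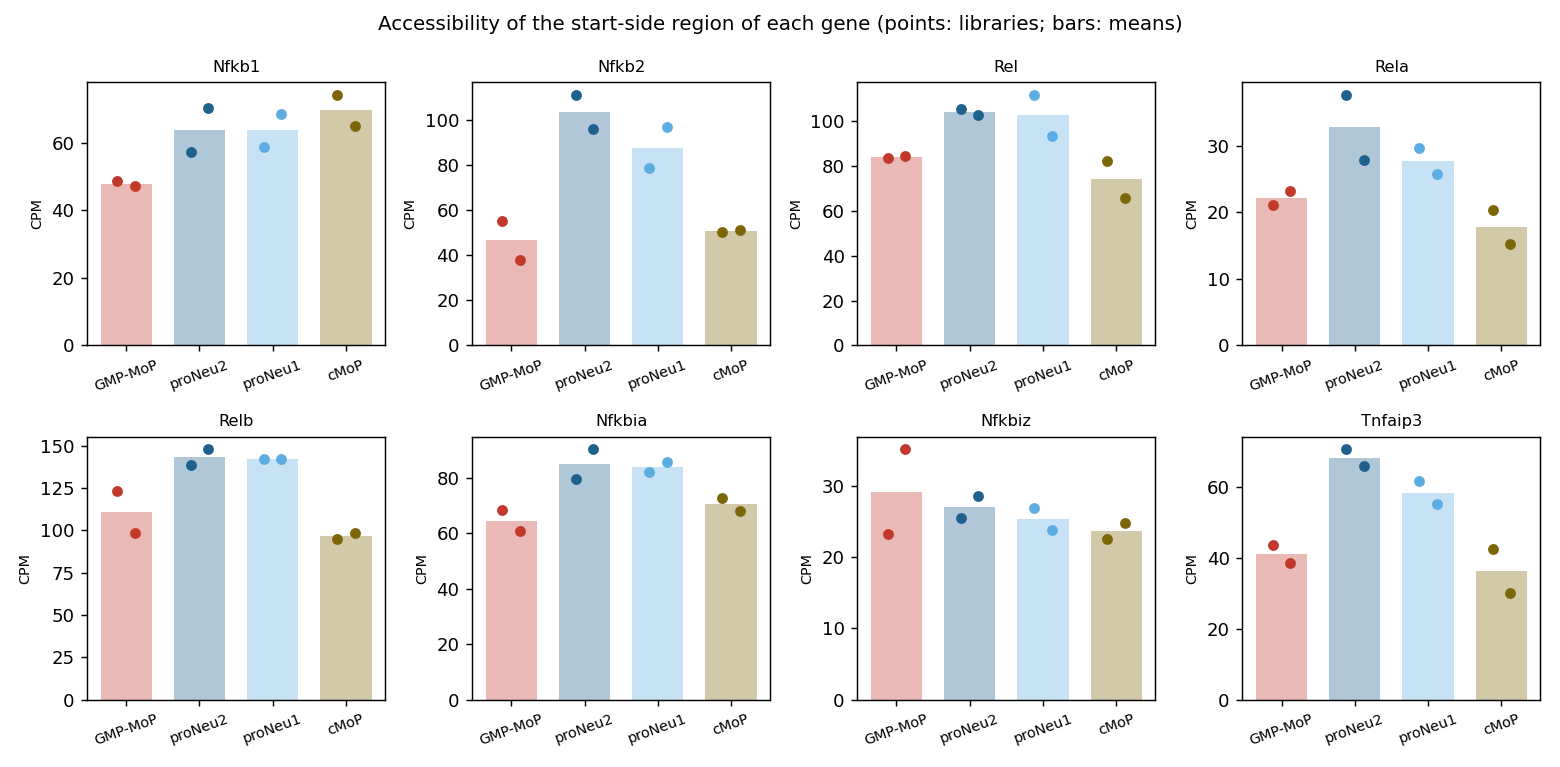
Accessibility in CPM of the region at the start, or at the gene end of highest level, for each of the 8 genes in GMP-MoP, proNeu2, proNeu1 and cMoP; points are libraries and bars are means of 2. At Nfkb2 the proNeu libraries (78.6 to 111 CPM) lay above GMP-MoP (38.0 and 55.2) and cMoP (50.5 and 51.2), while at Nfkbiz every pair of groups other than proNeu2 (25.5 and 28.5) and cMoP (22.6 and 24.8) overlapped.

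Of the 42 regions, the largest difference between proNeu1 and cMoP was inside Nfkb1. The region chr3:135637463-135638248 in the gene body had 7.99 and 10.2 CPM in GMP-MoP, 1.22 and 0 in proNeu2, 0 and 2.03 in proNeu1, and 19.9 and 27.4 in cMoP. The proNeu libraries were at or under the level of 3 counts per library, and GMP-MoP lay between them and cMoP without overlap. With 29 counts in GMP-MoP against 3 in proNeu1, the level was 8.88-fold higher in GMP-MoP (95% exact counting interval 2.75 to 45.6). By edgeR this log2 difference was 3.06 (SE 0.680, adjusted p = 0.000234). With 3 counts in proNeu1 against 89 in cMoP, the level was 22.8-fold lower in proNeu1 (interval 7.56 to 113). By edgeR that log2 difference was -4.41 (SE 0.535, adjusted p = 4.62e-13). The counting intervals use counts pooled over the libraries of each group, so they leave out the spread between libraries. At most they cover counting error, since they take reads as independent, and removal of duplicates was not given in the sources. In GMP-MoP against cMoP the log2 difference was -1.35 (SE 0.322, adjusted p = 0.00269), a call lost without GMP-MoP replicate 1 (adjusted p = 0.0574) or cMoP replicate 2 (0.152) and with DESeq2 (0.666). The calls against proNeu1 and of proNeu1 against cMoP were kept in every alternative run.

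**Figure D4:**
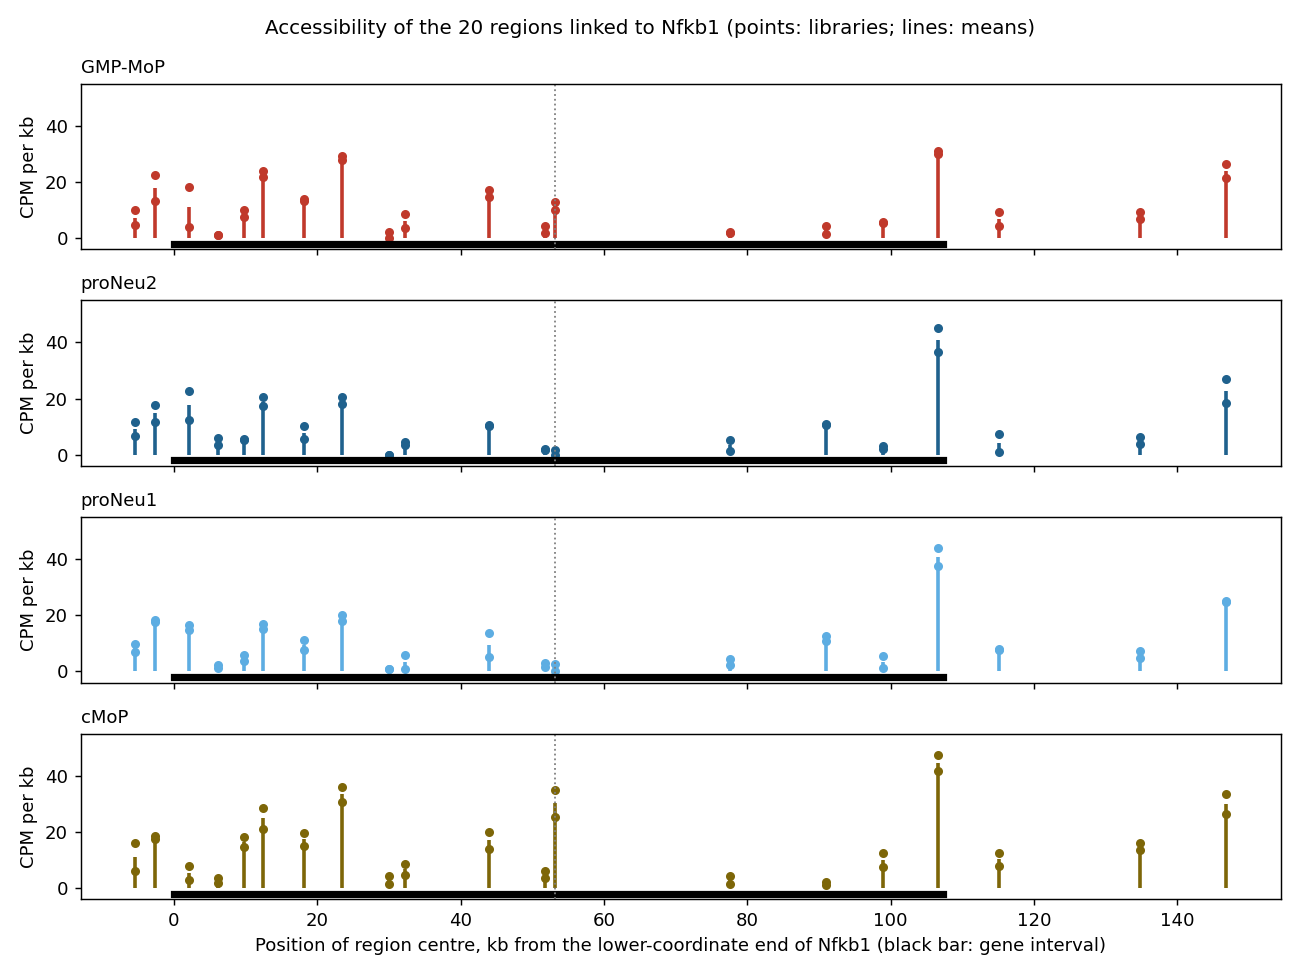
Accessibility per kb of the 20 regions linked to Nfkb1 by distance from the lower-coordinate end of the gene, in GMP-MoP, proNeu2, proNeu1 and cMoP; points are libraries, lines are means of 2, the black bar is the gene interval and the dotted line marks the gene-body region of largest difference. In CPM before division by region width, the GMP-MoP libraries at that region (7.99 and 10.2) lay between proNeu1 (0 and 2.03) and cMoP (19.9 and 27.4).

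Of the 13 tested Nfkb1 regions, that one included, 7 were lower in proNeu1 than in cMoP and 1 was higher, beside 21.9% lower and 20.6% higher of all regions. Among the lower ones, chr3:135607296-135608919 had 47.2 and 45.4 CPM in GMP-MoP, 33.4 and 29.2 in proNeu2, 29.0 and 32.6 in proNeu1, and 58.6 and 49.6 in cMoP (log2 difference of proNeu1 against cMoP -0.81, SE 0.202, adjusted p = 0.000425). A region 26318 bp outside the gene, chr3:135718287-135720577, had 16.0 and 21.5 CPM in GMP-MoP, 9.12 and 14.6 in proNeu2, 17.0 and 10.9 in proNeu1, and 31.2 and 36.4 in cMoP. There both GMP-MoP libraries lay below both cMoP libraries (log2 difference -0.82, SE 0.245, adjusted p = 0.0225), and so did proNeu1 (-1.28, SE 0.269, adjusted p = 2.48e-05). The GMP-MoP call was lost without any 1 of the GMP-MoP and cMoP libraries, at adjusted p-values from 0.0609 without cMoP replicate 1 to 0.273 without cMoP replicate 2.

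The exception, chr3:135586276-135587181 in the gene body, had 3.63 and 16.4 CPM in GMP-MoP, 20.7 and 11.3 in proNeu2, 13.5 and 14.9 in proNeu1, and 6.99 and 2.64 in cMoP. The GMP-MoP libraries spanned almost the whole range. It was higher in proNeu1 than in cMoP by 1.55 (SE 0.42, adjusted p = 0.00123), a call lost without cMoP replicate 2 (adjusted p = 0.0734) and with DESeq2 (0.225). Of the remaining calls of proNeu1 against cMoP in Nfkb1, chr3:135593984-135594934 (-1.76, SE 0.42, adjusted p = 0.000223) was kept in every alternative run. The other 3 had log2 differences from -0.63 to -0.88 and were lost with DESeq2. Of these, chr3:135602304-135603405 lost its call without proNeu1 replicate 1 (adjusted p = 0.232) or cMoP replicate 2 (0.215), and chr3:135627867-135629422 without proNeu1 replicate 2 (0.548) or cMoP replicate 1 (0.211). The third, chr3:135596595-135597635 (adjusted p = 0.0464), lost it with the proNeu2 libraries counted as 1 sample (0.0714) and without any 1 library other than cMoP replicate 1, at adjusted p-values from 0.0531 without GMP-MoP replicate 1 to 0.411 without cMoP replicate 2. In GMP-MoP against proNeu1, chr3:135607296-135608919 (0.58, adjusted p = 0.033) and chr3:135627867-135629422 (0.76, adjusted p = 0.0423) were also higher. Without proNeu1 replicate 2 their adjusted p-values were 0.0851 and 0.716, without GMP-MoP replicate 1 they were 0.114 and 0.0518, and without GMP-MoP replicate 2 they were 0.122 and 0.2997. Without proNeu1 replicate 1 the adjusted p was 0.189 for chr3:135607296-135608919.

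Rel had distal and gene-body regions opposite in direction to its start. A region 34664 bp outside the gene, chr11:23805633-23806407, had 7.99 and 10.8 CPM in GMP-MoP, 3.04 and 1.99 in proNeu2, 2.12 and 3.39 in proNeu1, and 20.4 and 19.5 in cMoP. The groups did not overlap, apart from the 2 proNeu groups with each other. It was lower in GMP-MoP than in cMoP by -1.06 (SE 0.327, adjusted p = 0.0305), higher in GMP-MoP than in proNeu1 by 1.75 (SE 0.536, adjusted p = 0.00887), and lower in proNeu1 than in cMoP by -2.82 (SE 0.445, adjusted p = 2.17e-08). The last was kept in every alternative run. The first was lost without any 1 of the GMP-MoP and cMoP libraries (adjusted p from 0.110 without GMP-MoP replicate 2 to 0.234 without GMP-MoP replicate 1), and the second without GMP-MoP replicate 2 (0.156) or proNeu1 replicate 1 (0.107). In the gene body, chr11:23762432-23763214 had 5.81 and 4.54 CPM in GMP-MoP, 0.608 and 1.99 in proNeu2, 1.42 and 1.36 in proNeu1, and 11.8 and 8.97 in cMoP. The level in proNeu1 was below that in cMoP by -2.84 (SE 0.634, adjusted p = 7.68e-05; with loess offsets 0.0661), while GMP-MoP against proNeu1 did not pass (1.82, SE 0.762, adjusted p = 0.0651).

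Around Tnfaip3, the start and the flank differed in opposite directions. The flanking region chr10:19033371-19034293, 17961 bp outside the gene, had 18.2 and 16.4 CPM in GMP-MoP, 6.69 and 3.319 in proNeu2, 7.79 and 2.71 in proNeu1, and 22.0 and 26.4 in cMoP. GMP-MoP and cMoP lay above both proNeu groups. It was higher in GMP-MoP than in proNeu1 by 1.71 (SE 0.405, adjusted p = 0.000564) and lower in proNeu1 than in cMoP by -2.20 (SE 0.367, adjusted p = 1.1e-07). Without proNeu1 replicate 2 the adjusted p for GMP-MoP against proNeu1 was 0.0851, and with DESeq2 it was 0.0560. Another region, chr10:19043617-19044439, 28207 bp outside, had 17.4 and 11.9 CPM in GMP-MoP, 7.90 and 7.97 in proNeu2, 3.54 and 6.78 in proNeu1, and 13.4 and 10.6 in cMoP. It was higher in GMP-MoP than in proNeu1 by 1.45 (SE 0.424, adjusted p = 0.00588) and lower in proNeu1 than in cMoP by -1.19 (SE 0.427, adjusted p = 0.0163). The first was lost without GMP-MoP replicate 1 (0.0902) or proNeu1 replicate 1 (0.132), and the second without proNeu1 replicate 1 (0.237) or cMoP replicate 1 (0.122), and DESeq2 made neither call (0.133 and 0.136). The remaining 3 tested regions of Tnfaip3, 1 in the gene body and 2 outside, passed in no comparison.

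Nfkbiz had a gene-body region, chr16:55835556-55836361, which also lies within 10 kb of Nxpe3. It had 9.44 and 11.9 CPM in GMP-MoP, 2.43 and 1.99 in proNeu2, 4.96 and 1.36 in proNeu1, and 15.6 and 19.5 in cMoP. A region 29053 bp outside, chr16:55781100-55782322, had 10.2 and 13.0 CPM in GMP-MoP, 3.04 and 5.31 in proNeu2, 2.12 and 6.10 in proNeu1, and 15.6 and 21.6 in cMoP. At both, GMP-MoP lay below cMoP and above both proNeu groups, but GMP-MoP against cMoP passed the test at neither (adjusted p = 0.222 and 0.236). Both regions were lower in proNeu1 than in cMoP, by -2.47 (SE 0.447, adjusted p = 1.04e-06) and by -2.14 (SE 0.412, adjusted p = 4.18e-06), and both calls were kept in every alternative run. The log2 differences of GMP-MoP against proNeu1 were 1.77 (SE 0.51, adjusted p = 0.00531) and 1.48 (SE 0.467, adjusted p = 0.0115). Of these 2 calls, the gene-body one was lost without GMP-MoP replicate 2 (adjusted p = 0.103) or proNeu1 replicate 2 (0.197), and the outside one without GMP-MoP replicate 2 (0.164) or proNeu1 replicate 1 (0.234).

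Another gene-body region of Nfkbiz, chr16:55821301-55822961, differed the other way, with 52.3 and 61.8 CPM in GMP-MoP, 75.4 and 95.6 in proNeu2, 83.6 and 78.7 in proNeu1, and 60.2 and 59.6 in cMoP. The level in GMP-MoP was below that in proNeu1 by -0.50 (SE 0.169, adjusted p = 0.0202) and higher in proNeu1 than in cMoP by 0.44 (SE 0.162, adjusted p = 0.0213). With loess offsets neither passed (adjusted p = 0.447 and 0.698), nor did either with total counts in place of TMM (0.0839 and 0.0695). The first was lost without GMP-MoP replicate 1 (0.105), proNeu1 replicate 1 (0.119) or proNeu1 replicate 2 (0.0584), and the second without proNeu1 replicate 1 (0.0846) or cMoP replicate 2 (0.0609). A region 20416 bp outside was also higher in proNeu1 than in cMoP, by 0.78 (SE 0.297, adjusted p = 0.0258), and lost that call without proNeu1 replicate 1 (0.181) or cMoP replicate 2 (0.200).

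Around Nfkbia, the distal regions that differed were higher in the proNeu groups. The region chr12:55456330-55457104, 32305 bp outside the gene, had 0.726 and 0.567 CPM in GMP-MoP, 8.51 and 9.96 in proNeu2, 12.0 and 8.82 in proNeu1, and 1.08 and 1.06 in cMoP. The GMP-MoP libraries held 1 count each. With 2 counts in GMP-MoP against 30 in proNeu1 the level was 16.3-fold lower in GMP-MoP (95% exact counting interval 4.14 to 141). By edgeR this log2 difference was -3.87 (SE 0.748, adjusted p = 1.89e-05). The level in proNeu1 exceeded that in cMoP by a log2 difference of 3.20 (SE 0.639, adjusted p = 9.66e-06). Neither call was lost in any alternative in which the region was tested.

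A wider region 22089 bp outside Nfkbia, chr12:55465262-55467320, had 15.2 and 17.0 CPM in GMP-MoP, 31.0 and 29.9 in proNeu2, 34.0 and 25.1 in proNeu1, and 24.2 and 10.03 in cMoP. It was lower in GMP-MoP than in proNeu1 by -0.86 (SE 0.274, adjusted p = 0.0128) and higher in proNeu1 than in cMoP by 0.79 (SE 0.261, adjusted p = 0.00913). The first was lost without GMP-MoP replicate 1 (0.0539), GMP-MoP replicate 2 (0.0656) or proNeu1 replicate 1 (0.200), and the second without proNeu1 replicate 1 (0.149) or cMoP replicate 2 (0.448). At 14731 bp outside, chr12:55473446-55474678 had 18.9 and 11.3 CPM in GMP-MoP, 39.5 and 36.5 in proNeu2, 26.2 and 26.5 in proNeu1, and 19.4 and 17.9 in cMoP. It was lower in GMP-MoP than in proNeu1 by -0.84 (SE 0.283, adjusted p = 0.0192). That call was lost without GMP-MoP replicate 2 (0.400), proNeu1 replicate 1 (0.0701) or proNeu1 replicate 2 (0.0860). Total counts in place of TMM (adjusted p = 0.0541), a minimum count of 20 (0.0505) and DESeq2 (0.234) also ended that call. Whether these regions stand apart from those of the other inhibitors was not tested.

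**Figure D5:**
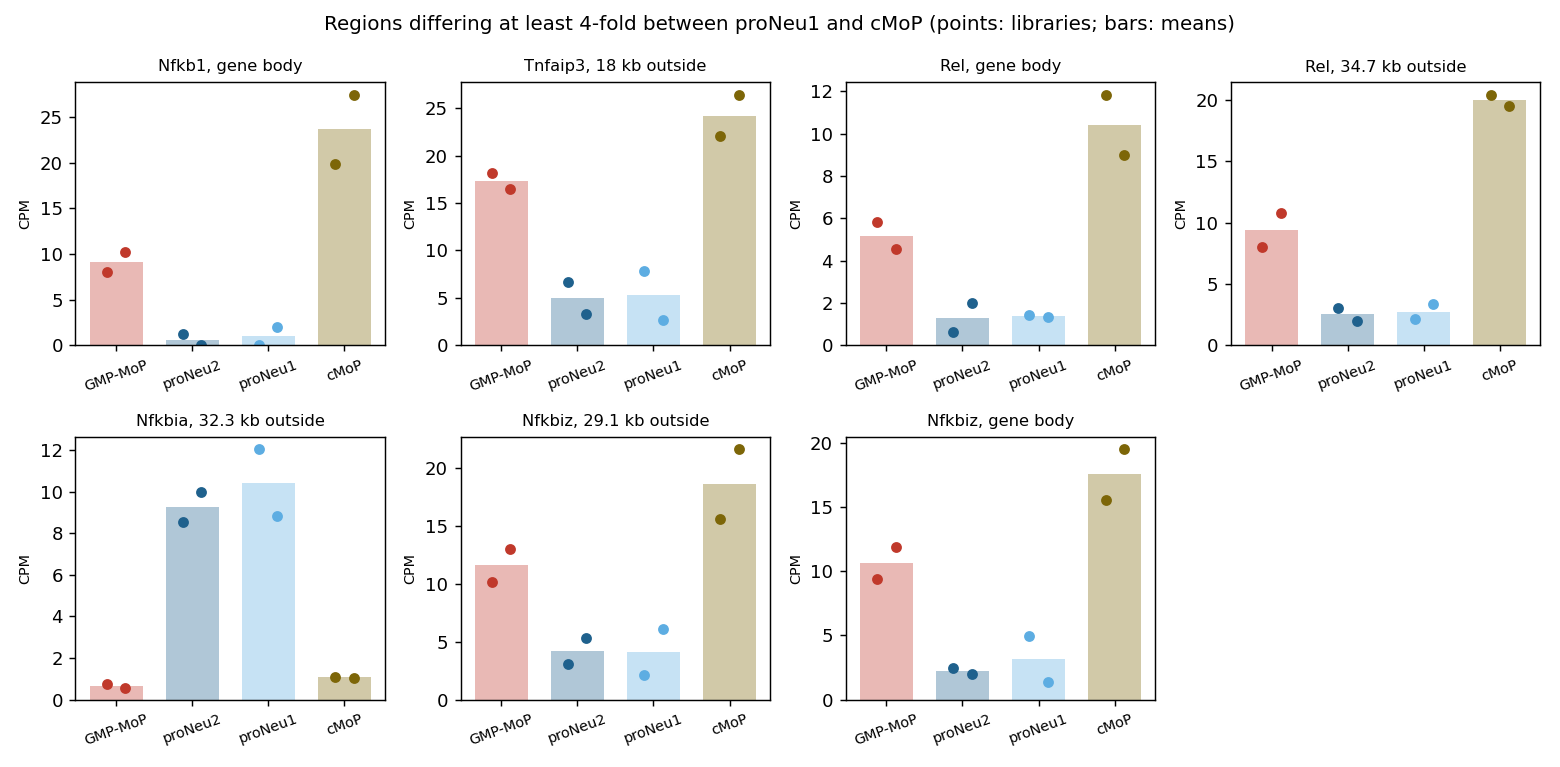
Accessibility in CPM of the regions of these genes that differed at least 4-fold between proNeu1 and cMoP, in GMP-MoP, proNeu2, proNeu1 and cMoP; points are libraries and bars are means of 2. In the Nfkb1 gene body GMP-MoP had 7.99 and 10.2 CPM, between proNeu1 (0 and 2.03) and cMoP (19.9 and 27.4), while the Nfkbia region was at 0.567 and 0.726 CPM in GMP-MoP against 8.82 and 12.0 in proNeu1.

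The 10 regions that failed the filter on low counts were 7 of Nfkb1 and 1 each of Relb, Nfkbiz and Tnfaip3. The most uneven by its values, chr3:135675420-135675925 in the Nfkb1 gene body, had 0.726 and 2.27 CPM in GMP-MoP, 5.47 and 5.31 in proNeu2, 6.37 and 5.43 in proNeu1, and 1.08 and 0.528 in cMoP. At the 50 kb limit, the farthest region inside lay 46529 bp from Tnfaip3 and had 19.6 and 19.3 CPM in GMP-MoP, 14.0 and 16.6 in proNeu2, 17.0 and 12.2 in proNeu1, and 16.1 and 23.2 in cMoP. The nearest outside lay 52854 bp from Tnfaip3, with means of 2.87 CPM in GMP-MoP, 1.82 in proNeu2, 2.43 in proNeu1 and 3.46 in cMoP.

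The rest of the pathway was read from 4 lists of 79 genes, of which 75 had regions and 271 regions were tested. In GMP-MoP against cMoP, 1 region was higher and 14 lower in GMP-MoP (0.369% and 5.17% of the lists' regions, beside 1.98% and 3.47% of all). In GMP-MoP against proNeu1, 34 were higher and 41 lower (12.5% and 15.1%, beside 11.6% and 12.5% of all). In proNeu1 against cMoP, 48 were higher and 71 were lower (17.7% and 26.2%, beside 20.6% and 21.9% of all), and in proNeu2 against proNeu1 none was called.

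Receptor genes had 4 of 55 tested regions higher and 19 lower in proNeu1 against cMoP (7.27% and 34.5%, beside 20.6% and 21.9% of all regions). Tnfrsf1b, a receptor for tumour necrosis factor, had a gene-body region at chr4:145233295-145234613 with 53.0 and 48.8 CPM in GMP-MoP, 8.50 and 5.43 in proNeu1, and 79.0 and 59.1 in cMoP. It was higher in GMP-MoP than in proNeu1 by a log2 difference of 2.86 (SE 0.294, adjusted p = 9.85e-16) and lower in proNeu1 than in cMoP by -3.30 (SE 0.271, adjusted p = 1.03e-24). Tlr4, the receptor for lipopolysaccharide, had a gene-body region with 25.4 and 15.3 CPM in GMP-MoP, 2.12 and 2.03 in proNeu1, and 21.5 and 30.1 in cMoP, higher in GMP-MoP than in proNeu1 by 3.21 (SE 0.484, adjusted p = 3.67e-08). Cd40, a co-stimulatory receptor, had a gene-body region with 0 and 1.70 CPM in GMP-MoP against 9.14 and 15.3 in cMoP (adjusted p = 4.02e-05), and its gene-end region was lower in GMP-MoP by -1.39 (SE 0.332, adjusted p = 0.00286).

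The other I kappa B proteins and inhibitors had 10 of 32 tested regions higher and 4 lower in proNeu1 against cMoP (31.2% and 12.5%, beside 20.6% and 21.9% of all regions). Tnip3, an inhibitor that binds the Tnfaip3 product, had a region 4405 bp outside with 11.6 and 17.6 CPM in GMP-MoP, 1.42 and 0.678 in proNeu1, and 21.5 and 33.8 in cMoP. It was lower in GMP-MoP than in cMoP by -0.89 (SE 0.278, adjusted p = 0.0338). Nfkbie, which encodes I kappa B epsilon, had a gene-end region with 13.1 and 14.2 CPM in GMP-MoP, 36.1 and 35.9 in proNeu1, and 31.7 and 21.6 in cMoP. It was lower in GMP-MoP than in proNeu1 by -1.39 (SE 0.268, adjusted p = 1.8e-05) and than in cMoP by -0.96 (SE 0.272, adjusted p = 0.0162).

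Kinases and adaptors had 19 of 93 tested regions higher and 23 lower in proNeu1 against cMoP (20.4% and 24.7%, near the 20.6% and 21.9% of all regions). Ikbkb, the kinase that marks I kappa B proteins for destruction, had a region 292 bp from the gene that was lower in GMP-MoP than in cMoP by -1.89 (SE 0.397, adjusted p = 0.00049). Traf3, a brake on the non-canonical pathway, held the single region higher in GMP-MoP than in cMoP, with 10.9 and 9.07 CPM in GMP-MoP against 2.15 and 1.06 in cMoP (log2 difference 2.57, SE 0.557, adjusted p = 0.000758). Of the kinases and adaptors, 2 regions of Ripk2 and 1 of Traf5 were also lower in GMP-MoP than in cMoP.

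Known target genes had 15 of 91 tested regions higher and 25 lower in proNeu1 against cMoP (16.5% and 27.5%, beside 20.6% and 21.9% of all regions). Lcn2, the iron-binding granule protein of neutrophils, had a gene-end region with 2.90 and 7.37 CPM in GMP-MoP, 32.6 and 31.9 in proNeu1, and 3.23 and 5.81 in cMoP. This region was lower in GMP-MoP than in proNeu1 by -2.56 (SE 0.341, adjusted p = 4.29e-10). Ccl2, a monocyte-attracting chemokine, had a gene-end region with 13.1 and 12.5 CPM in GMP-MoP, 2.12 and 4.07 in proNeu1, and 26.9 and 25.3 in cMoP, lower in GMP-MoP than in cMoP by -1.03 (SE 0.29, adjusted p = 0.0147). Regions of Ccnd1 and Ptgs2 and a distal region of Ccl2 were also lower in GMP-MoP than in cMoP, as was 1 of the receptor gene Il18r1. DESeq2 called none of the list regions in GMP-MoP against cMoP. When a GMP-MoP or cMoP library was left out, the count of 15 became 6 for GMP-MoP replicate 1, 8 for GMP-MoP replicate 2, 7 for cMoP replicate 1 and 6 for cMoP replicate 2. For GMP-MoP against proNeu1 the count of 75 became 36 without GMP-MoP replicate 2, 48 without proNeu1 replicate 1 and 44 without proNeu1 replicate 2.

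The genes whose summed accessibility was most like that of a member over the 8 libraries (Pearson r of log2 CPM among 7503 genes, a description with no test, since the 4 groups set most of the pattern) were Bfsp1 (0.992) for Nfkb1, Slc37a4 (0.995) for Nfkb2, Lamp2 (0.959) for Rel, Tcf25 (0.993) for Rela and Ripor1 (0.969) for Relb. For the inhibitors they were Rfx1 (0.991) for Nfkbia, Fnip2 (0.955) for Nfkbiz and Acadm (0.940) for Tnfaip3. Between members, r was 0.948 for Nfkbia with Rela and -0.908 for Nfkb1 with Relb.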

How the data were processed

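ATAC-seq libraries of GMP-MoP, proNeu2, proNeu1 and cMoP (2 each) were analysed from deposited read counts over the same 61196 regions. The mm10 build, HOMER 4.11, Bowtie2 2.3.5.1 and edgeR 3.32.1 were used per the submitters' processing notes, with no role given. For peak calling, read shifting for Tn5 and removal of duplicates, the methods were not given in the sources used here. Deposited counts are whole numbers with differing totals and were taken as raw.

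Regions were assigned to the nearest protein-coding interval of a RefSeq table of the same assembly (GRCm38.p6) within 50 kb, which linked 53906 regions (88.1%) to 15579 of 21900 genes. Exons and introns were not distinguished, and starts were listed for 17492 genes, not for Nfkb1, Relb and Nfkbiz.

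Counts of regions, and counts summed per gene, were fitted in edgeR 4.0.16 (R 4.3.3) with TMM factors, filterByExpr at a minimum count of 10, a group-mean design over all 8 libraries and the robust quasi-likelihood F test. This tested 47506 regions and 14837 gene sums, with Benjamini-Hochberg adjustment over each and calls at an adjusted p under 0.05. Standard errors were derived from the log2 difference and its F statistic (difference over root F). A difference counts as kept where it passed the threshold in the same direction in every alternative that tested it. The code was tested on simulated data.

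Alternatives were total counts, loess offsets, DESeq2 1.42.0, no filter, a minimum count of 20, only the 2 groups compared, a replicate block, each library left out, and other links to genes. Members and gene lists were chosen with earlier results of these data known. The text names for each gene its start-side region and its called regions. From the pathway lists it names regions called in GMP-MoP against cMoP and some of smallest adjusted p in the comparisons with proNeu1; 1 listed gene is not reported here.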

Additional observations from a re-analysis of the deposited data

How the results depend on the processing

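Of 44 region calls among the member genes, 15 were kept in every alternative and 17 with DESeq2; of 11 gene sum calls, 2 and 4 were kept. No call changed direction. DESeq2 called 37 regions in all, 0 member regions, 0 member gene sums and 0 pathway regions in GMP-MoP against cMoP, against 2135, 4, 1 and 20 in GMP-MoP against proNeu1 and 9242, 13, 3 and 56 in proNeu1 against cMoP; in proNeu2 against proNeu1 it called 1 region in all. A minimum count of 20, which tests fewer regions, gave 1718 calls in all and 9 pathway calls in GMP-MoP against cMoP, and 13130 in all in proNeu1 against cMoP. A fit of only GMP-MoP and cMoP gave 1 member region and 0 gene sums. Loess offsets gave 63 calls in all in proNeu2 against proNeu1, and summing the proNeu2 libraries as 1 sample, an alternative chosen after seeing the data, gave 16.

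Other links change the members. The link by gene ends or listed starts within 1 kb only gave 9 regions, all tested. Member calls were 1 in GMP-MoP against cMoP, 3 in GMP-MoP against proNeu1 and 5 in proNeu1 against cMoP. Of 66 tested pathway regions, 4, 25 and 31 were called in the same order. With any gene within 10 kb (37 regions, 28 tested), member calls were 2, 9 and 16. With the nearest listed start within 50 kb (25 regions of 5 genes, 23 tested), member calls were 1, 9 and 11. In GMP-MoP against cMoP that link had 7 pathway calls among 214 tested regions. Of all tested regions at any position, 5.45%, 24.1% and 42.4% were called in the same order of comparisons.

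Leaving out each library in turn gave, in GMP-MoP against cMoP, 816 to 2665 calls in all, 0 to 3 member regions, 0 to 1 gene sums and 6 to 15 pathway regions. In GMP-MoP against proNeu1 it gave 4749 to 11368, 8 to 16, 1 to 4 and 36 to 76. In proNeu1 against cMoP it gave 15 to 24 member regions, and in proNeu2 against proNeu1 0 to 38 calls in all. Where this leaves a group with 1 library, its spread is taken from the other groups.

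Differences between replicates correlated between groups at -0.011 to 0.0793 over single regions. With few counts per region, such values cannot show whether the replicate numbers pair the libraries. With a replicate block the member regions called were 4, 16, 24 and 0 in GMP-MoP against cMoP, GMP-MoP against proNeu1, proNeu1 against cMoP and proNeu2 against proNeu1, and 2736, 11734, 20468 and 40 of all regions were called.

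Depth limits the small regions: 3 counts correspond to 1.58 to 2.18 CPM, and a difference that missed the threshold is not shown to be absent.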
